A study of Mus musculus with 24 samples.

Results

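The genes described here are those of the tricarboxylic acid (TCA) cycle and of pyruvate oxidation in the mouse heart. They comprise the enzymes of the cycle, the subunits of the pyruvate dehydrogenase complex, its kinases and phosphatases, the mitochondrial pyruvate carrier and pyruvate carboxylase. They were listed by symbol, with earlier results of these data known, and all 34 symbols matched 1 Ensembl identifier each among the 43432 of the count table.

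Total RNA of hearts from C57BL/6 mice was sequenced after removal of ribosomal RNA, in 24 libraries with 4 in each of 6 groups. Sedentary mice were the control of mice that ran in wheels for 8 weeks (Running). TAC, transverse aortic constriction, is an operation in which the aortic arch is constricted so that the left ventricle pumps against raised pressure. Hearts were taken at 2 weeks (TAC-LVH, for left ventricular hypertrophy) and at 8 weeks (TAC-HF, for heart failure), each with its own group after a sham operation (Sham-LVH, Sham-HF). The labels name no genotype beyond the strain, and no sex, age or time after the sham operation. They do not say that the libraries of a group came from separate animals, so the p-values below measure the spread between these libraries, which may be technical.

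The TCA cycle oxidizes acetyl-CoA in the mitochondrial matrix and passes the electrons to the respiratory chain, which makes most of the ATP of a beating heart. Fatty acids reach the cycle as acetyl-CoA from beta-oxidation, and carbohydrate reaches it as pyruvate, which the pyruvate dehydrogenase complex converts to acetyl-CoA. Pyruvate dehydrogenase kinases phosphorylate the complex and switch it off, and phosphatases switch it on again, so these regulators set how much pyruvate is oxidized.

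Transcript levels per length differed widely among the 34 genes. In counts per 1000000 (CPM) per kilobase of the principal transcript (CPM per kb), the highest means in sedentary hearts were those of Idh2 at 240.1 ± 23.4 (SD, n = 4), Mdh1 at 215 ± 14.5 and Ogdh at 202 ± 13.5. The ranges of these neighbours in the order overlapped. The lowest were the regulators Pdp1 at 3.22 ± 0.531, Pdp2 at 2.21 ± 0.253 and Pdk3 at 0.358 ± 0.0690. Among the kinases Pdk2 (38.4 ± 5.24) and Pdk4 (34.4 ± 9.74) did not differ beyond their spread in sedentary hearts, and Pdk1 (12.1 ± 1.45) lay below both.

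Total counts per library ran from 16802939 to 39512101 (median 22845050). Mitochondrially encoded transcripts took 50.7% to 58.4% of the counts in TAC-LVH against 59.8% to 64.5% in Sham-LVH, and 52.7% to 57.6% in TAC-HF against 61.3% to 67.0% in Sham-HF. The defining transcripts of the labelled tissue were abundant in every library. Levels below are CPM after TMM scaling over all 24 libraries, which are comparable between libraries for 1 gene. Fold changes are log2 values with their standard error (SE), and adjusted p-values come from edgeR's quasi-likelihood F test with Benjamini-Hochberg adjustment over all genes tested. A gene is said to rise or fall where that adjusted p is under 0.05.

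After TAC most of these transcripts were lower than in sham hearts, and more of them at 2 weeks than at 8 weeks. At 2 weeks 29 of the 34 genes fell and 1, the kinase Pdk3, rose, while 16.1% of the 14224 genes tested fell and 17.1% rose. At 8 weeks 16 of the 34 fell and 1, the subunit gene Pdhx, rose, beside 14.7% lower and 14.9% higher of 13621 genes. The cycle enzymes proper accounted for 20 of 20 genes lower at 2 weeks and 11 of 20 at 8 weeks. The genes of pyruvate oxidation and its control accounted for 9 lower and 1 higher of 14 at 2 weeks, and for 5 lower and 1 higher at 8 weeks. The median log2 fold change of the 34 was -0.70 at 2 weeks and -0.245 at 8 weeks, against -0.002 and 0.003 for all genes tested. In 25 of the 34 genes every TAC-LVH library lay below every Sham-LVH library (15.6% of all genes tested did), and in 1 every TAC-LVH library lay above (16.8%). At 8 weeks the groups did not overlap in 16 genes that were lower (13.5%) and in 2, Pdhb and Pdhx, that were higher (15.7%). With single libraries left out in turn, the genes lower ran from 25 to 32 at 2 weeks and from 13 to 21 at 8 weeks. The 21 were found without TAC-HF replicate 3, the added 5 being Idh2 (-0.41), Sucla2 (-0.28), Sdhb (-0.28), Sdhc (-0.35) and Mdh1 (-0.22).

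**Figure D1:**
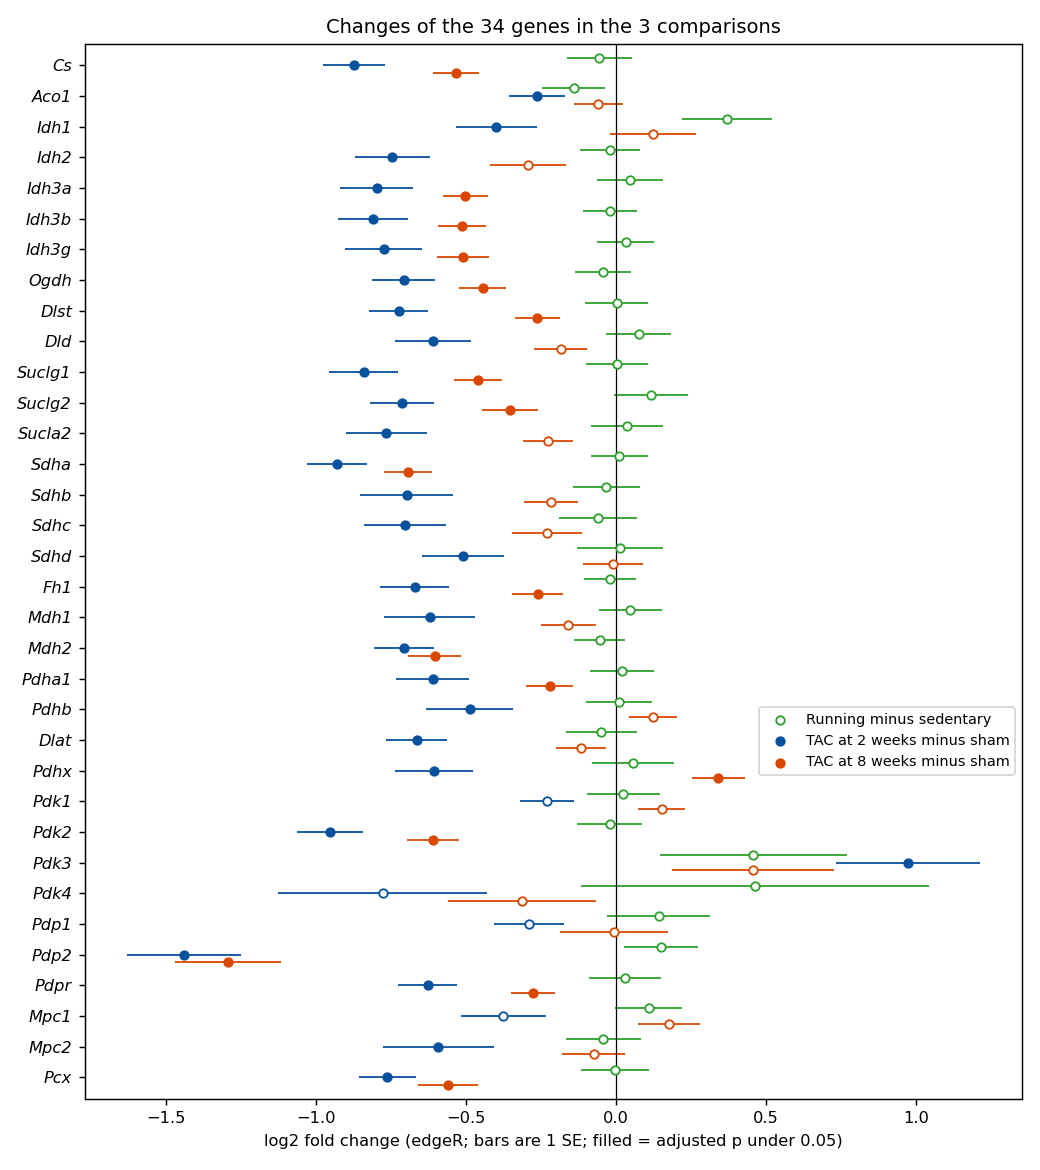
Log2 fold changes of the 34 genes (x axis, edgeR, bars 1 SE) for the running comparison and for both TAC times, each relative to its own control group, with filled points at an adjusted p under 0.05. At 2 weeks 29 genes lie left of 0 as filled points and Pdk3 lies right of it; none of the running points is filled. With library totals as the scale, several turn to the right of 0, among them Aco1 and Idh1 at 2 weeks and Dlst, Fh1, Pdha1 and Pdpr at 8 weeks.

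These counts depend on the scale. TMM sets the bulk of genes equal between groups, and scaling by library totals alone, of which mitochondrially encoded RNA is the larger part, moved the median of all genes to 0.41 at 2 weeks and 0.335 at 8 weeks. On that scale 13 of the 34 genes fell and 1 rose at 2 weeks, and 4 fell and 8 rose at 8 weeks. Of all genes tested, 7609 of 14224 were called in either direction at 2 weeks on that scale, and 6643 of 13621 at 8 weeks. Sdha, Pdk2 and Pdp2 fell at both times on either scale, and Mdh2 fell at 8 weeks on either. Genes whose sign turned positive include, among those not called, Pdk1, Pdp1 and Mpc1 at 2 weeks and Mdh1 (0.17) and Dlat (0.21) at 8 weeks. With the shift of the median gene subtracted, 33 of 34 genes lay below the median gene at 2 weeks and 28 of 34 at 8 weeks.

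In heart tissue, fewer cells of a type and less RNA per cell cannot be told apart. The 8 cardiomyocyte markers (Myh6, Tnnt2, Tnni3, Actc1, Ryr2, Actn2, Myl2, Pln) summed to 11888 to 14288 CPM in TAC-LVH against 20798 to 24452 in Sham-LVH, and to 15859 to 16965 in TAC-HF against 21491 to 24575 in Sham-HF. All 8 fell at 2 weeks (median log2 fold change -0.74) and 4 of 8 at 8 weeks (median -0.37). Myh6 was the largest part of each sum, at 5018 to 6012 CPM in TAC-LVH and 10565 to 11545 in Sham-LVH. At 8 weeks Myh6 was at 6367 to 7899 CPM in TAC-HF and 10798 to 12835 in Sham-HF. Between these 8-week groups Actc1, Actn2, Myl2 and Pln overlapped, while Myh6, Tnnt2, Tnni3 and Ryr2 did not. Of the 8 fibroblast markers 7 rose at 2 weeks and 5 at 8 weeks, with sums of 1655 to 1921 CPM in TAC-LVH, 912 to 1167 in Sham-LVH, 1254 to 1461 in TAC-HF and 761 to 1045 in Sham-HF. Of the 7 macrophage and monocyte markers 7 rose at 2 weeks and 6 at 8 weeks, with sums of 234 to 307 CPM in TAC-LVH, 109 to 175 in Sham-LVH, 138 to 225 in TAC-HF and 79.7 to 125 in Sham-HF. Of 6 endothelial markers 4 rose at 2 weeks and 0 at 8 weeks, and of 6 smooth muscle and pericyte markers 4 and 3. Of 3 brown adipocyte markers Ucp1 and Elovl3 were at 0 in all libraries of both TAC and both sham groups, while Cidea lay between 3.98 and 8.45 CPM. The 5 lymphocyte markers summed to less than 1 CPM in each library. The part of these shifts in the results below was not tested.

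Sequence before the start site is shown for 4 genes on which the results turn: Pdp2 and Sdha, which fell at both times on either scale, Pdhx, which rose at 8 weeks, and Pdk4, the kinase with the widest spread. Each line gives the 250 bases before the annotated start (RefSeq, GRCm38.p6), 5′ to 3′ on the gene's strand, and capitals mark letters that match one of the motifs searched.
Pdp2, chr8:104591222-104591471, + strand: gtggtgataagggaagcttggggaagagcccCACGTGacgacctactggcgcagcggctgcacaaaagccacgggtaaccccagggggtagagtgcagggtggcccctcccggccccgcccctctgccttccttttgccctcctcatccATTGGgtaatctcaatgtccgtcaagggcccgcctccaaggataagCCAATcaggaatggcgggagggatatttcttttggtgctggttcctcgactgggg
Sdha, chr13:74350241-74350490, - strand: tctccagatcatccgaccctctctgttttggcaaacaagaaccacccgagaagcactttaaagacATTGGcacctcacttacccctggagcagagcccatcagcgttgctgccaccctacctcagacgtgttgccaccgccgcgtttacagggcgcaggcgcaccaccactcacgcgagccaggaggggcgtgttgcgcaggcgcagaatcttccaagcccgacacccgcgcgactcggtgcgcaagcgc
Pdhx, chr2:103073514-103073763, - strand: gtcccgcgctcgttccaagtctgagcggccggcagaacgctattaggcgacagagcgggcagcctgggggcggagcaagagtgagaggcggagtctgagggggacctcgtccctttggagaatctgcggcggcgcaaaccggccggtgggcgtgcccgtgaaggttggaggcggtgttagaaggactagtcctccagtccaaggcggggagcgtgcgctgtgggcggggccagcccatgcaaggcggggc
Pdk4, chr6:5496279-5496528, - strand: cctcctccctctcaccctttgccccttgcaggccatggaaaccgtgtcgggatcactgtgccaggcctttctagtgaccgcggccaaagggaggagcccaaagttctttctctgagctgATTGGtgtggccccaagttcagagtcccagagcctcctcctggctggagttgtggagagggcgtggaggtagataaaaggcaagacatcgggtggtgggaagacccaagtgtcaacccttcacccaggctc
Windows of this kind were used for 31 of the 34 genes, 41 windows in all, as some genes had more than 1. Counts below are of genes with a match in any of their windows, while percentages are of single windows. They are therefore not directly comparable. The letters CCAAT, searched on both strands (ATTGG on the other), were in a window of 19 of the 31 genes and in 33.85% of all 32851 windows. The E-box CACGTG was found for 5 genes (Ogdh, Pdk2, Pdp2, Pdpr, Pcx) and in 6.02% of all windows. TGACGTCA, the cAMP response element, was found for 3 (Ogdh, Mdh2, Pdpr) and in 1.55%. AGGTCA, a nuclear receptor half-site, was found for 4 (Sucla2, Sdhb, Fh1, Mpc1) and in 14.0%. The letters TNAAGGTCA, which contain that half-site, as well as the NRF1 element, CCGGAAGT and TATAAA, were in the windows of 0 of 31 genes and in 1.138%, 0.782%, 2.88% and 12.4% of all windows. Over the 13197 windows of genes tested, the shares of these 4 were 0.652%, 1.56%, 5.48% and 6.75%, and those of the CCAAT box, the E-box, the cAMP response element and the half-site were 34.6%, 8.18%, 2.46% and 10.7%. These matches describe letters only. Pdp2 held CACGTG and CCAAT in both orientations, Sdha and Pdk4 held 1 ATTGG each, and the Pdhx window held none of the motifs.

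Citrate synthase (Cs), which joins acetyl-CoA to oxaloacetate and so opens the cycle, fell at both times. Its level was 214, 223, 239 and 227 CPM in TAC-LVH and 370.2, 426, 443 and 412 in Sham-LVH. At 8 weeks it was 304, 308, 322 and 299 in TAC-HF and 425, 455, 448 and 428 in Sham-HF. All TAC libraries lay below all sham libraries at both times, and the 8-week TAC libraries lay above the 2-week ones. The log2 fold changes were -0.87 ± 0.10 at 2 weeks (adjusted p = 3.59e-05) and -0.53 ± 0.08 at 8 weeks (adjusted p = 0.000198). Aco1, the cytosolic aconitase that also serves as an iron-responsive RNA-binding protein, fell slightly at 2 weeks (-0.26 ± 0.09, adjusted p = 0.0442), a direction that turned to 0.15 with library totals. That call was lost without any one of Sham-LVH replicates 2, 3 and 4 and TAC-LVH replicates 1, 2 and 4 (adjusted p up to 0.138), or with a block of low and high library numbers (0.0568).

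The 3 subunits of NAD-dependent isocitrate dehydrogenase, the rate-setting enzyme that makes 2-oxoglutarate, fell together at both times. The catalytic subunit gene Idh3a was at 87.1, 98.7, 118 and 101 CPM in TAC-LVH and 146, 189, 196 and 171 in Sham-LVH, and at 107, 116, 110.2 and 114 in TAC-HF and 159, 158, 159.8 and 147 in Sham-HF. Neither pair of groups overlapped. Its log2 fold changes were -0.80 ± 0.12 (adjusted p = 0.000278) and -0.50 ± 0.07 (adjusted p = 0.000253). Idh3b and Idh3g stood at -0.81 and -0.77 at 2 weeks, and at -0.51 each at 8 weeks. Idh2, the mitochondrial NADP-dependent form, fell at 2 weeks (-0.74 ± 0.13, adjusted p = 0.000546) and was at 465, 371, 520.0 and 339.6 CPM in TAC-HF against 446, 535, 543 and 522 in Sham-HF, where the groups overlapped (-0.29 ± 0.13, adjusted p = 0.099). Idh1, the cytosolic NADP-dependent form, fell at 2 weeks (-0.40 ± 0.13, adjusted p = 0.0356), but stood at 0.002 with library totals. Its call was lost without any one of Sham-LVH replicates 2 and 3 and TAC-LVH replicates 1, 2 and 4 (adjusted p up to 0.108). The fit of all 24 libraries did not call Idh1 either (0.0502).

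The 2-oxoglutarate dehydrogenase complex, built like the pyruvate dehydrogenase complex, turns 2-oxoglutarate into succinyl-CoA. Ogdh, its first subunit, was at 437, 488, 466 and 484 CPM in TAC-LVH and 813, 757, 706 and 779 in Sham-LVH, and at 751, 751, 731 and 738 in TAC-HF and 939.7, 1004, 1047 and 987 in Sham-HF. It fell at both times, by log2 values of -0.71 ± 0.10 (adjusted p = 0.000215) and -0.44 ± 0.08 (adjusted p = 0.000893), with no overlap of groups. Dlst, the second subunit, was at 104, 104, 124 and 118 CPM in TAC-LVH and 173, 187, 196 and 187 in Sham-LVH, a fall of -0.72 ± 0.10 (adjusted p = 0.000112). At 8 weeks Dlst was at 150.3, 164, 162 and 163 CPM in TAC-HF and 184, 193, 193 and 185 in Sham-HF. The groups again did not overlap, but the fall was small (-0.26 ± 0.07, adjusted p = 0.0171), turned to 0.07 with library totals and was not called without TAC-HF replicate 1 (adjusted p = 0.0705, with 0.0137 to 0.0705 over the libraries left out) or with a block of low and high library numbers (0.0753). At 8 weeks that block was partly tied to treatment, with most TAC-HF libraries in its low part and most Sham-HF libraries in its high part. Dld, the dihydrolipoamide dehydrogenase that this complex shares with the pyruvate dehydrogenase complex, fell at 2 weeks (-0.61 ± 0.13, adjusted p = 0.00229) and was not called at 8 weeks (-0.18 ± 0.09, adjusted p = 0.125).

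Succinyl-CoA ligase makes ATP or GTP directly in the cycle. It pairs the shared subunit Suclg1 with Sucla2, which gives the ATP-forming enzyme, or with Suclg2, which gives the GTP-forming one. Sucla2 was at 80.3, 94.7, 122 and 97.9 CPM in TAC-LVH and 141, 178, 189 and 161 in Sham-LVH, and at 136, 117, 149 and 132 in TAC-HF and 153, 157, 159 and 147 in Sham-HF. Suclg2 was at 31.4, 35.9, 44.1 and 36.0 CPM in TAC-LVH and 56.3, 61.5, 63.6 and 59.6 in Sham-LVH, and at 52.1, 45.8, 55.3 and 45.1 in TAC-HF and 57.4, 61.6, 69.9 and 60.4 in Sham-HF. Both were low in every TAC-LVH library, and only Suclg2 kept its groups apart at 8 weeks. Sucla2 fell at 2 weeks (-0.77 ± 0.14, adjusted p = 0.000755) and was not called at 8 weeks (-0.23 ± 0.08, adjusted p = 0.0549). It was called lower at 8 weeks by DESeq2 (adjusted p = 0.0293), with DESeq2 size factors in edgeR (0.0494) and without TAC-HF replicate 3 (0.0143). Suclg2 fell at both (-0.71 ± 0.11, adjusted p = 0.000226, and -0.35 ± 0.09, adjusted p = 0.0109), as did Suclg1 (-0.84 and -0.46). Per length, Sucla2 RNA stood above Suclg2 RNA in each group, for example at 69.0 ± 2.37 against 18.5 ± 1.59 CPM per kb in Sham-HF.

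**Figure D2:**
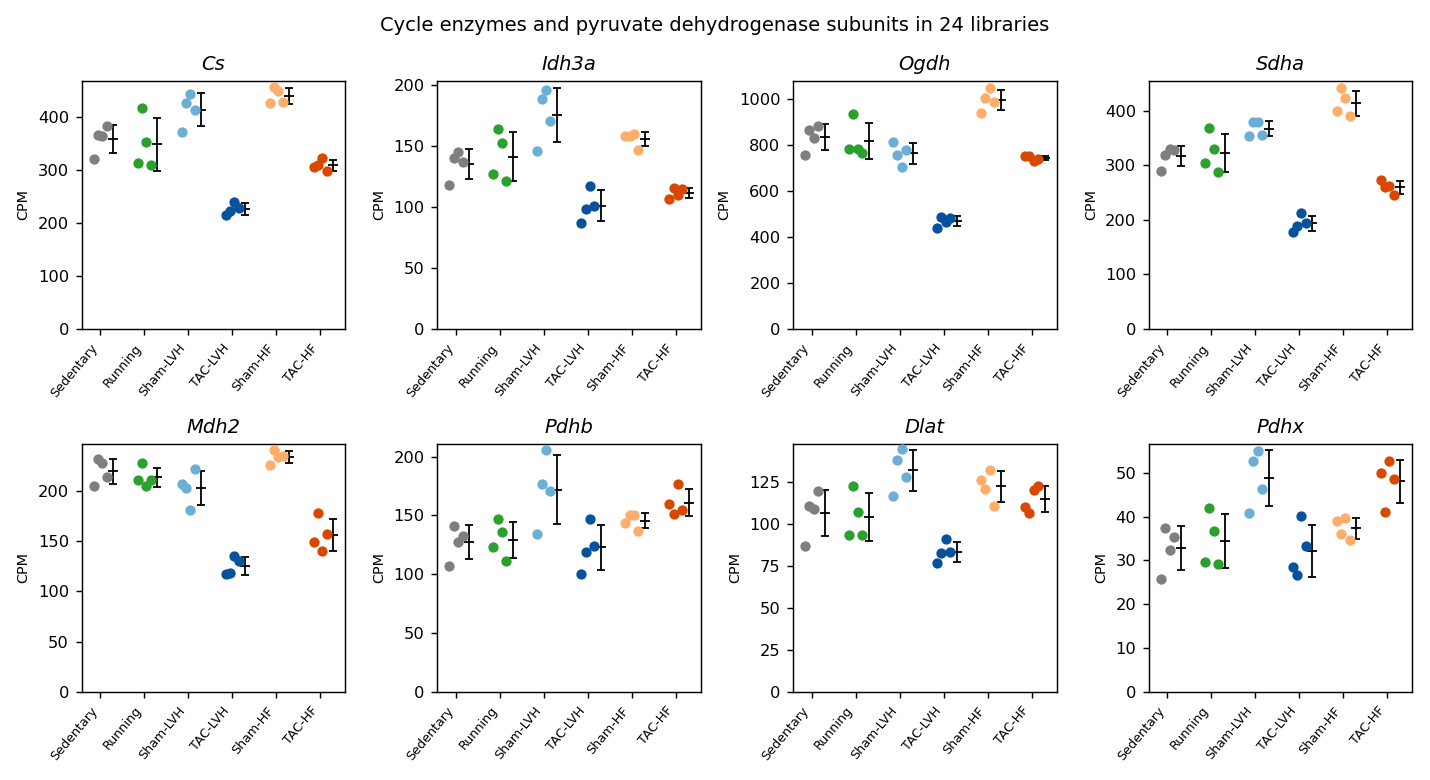
CPM (y axis, from 0) of 5 cycle enzyme genes and 3 pyruvate dehydrogenase subunit genes in the 24 libraries by group, 1 point a library, with the mean and SD of the 4 libraries beside the points. Cs, Ogdh, Sdha and Mdh2 lie below their shams at both TAC times, while Pdhx lies below its sham at 2 weeks and above it at 8 weeks, and Pdhb overlaps its sham at 2 weeks.

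Succinate dehydrogenase oxidizes succinate and is at the same time complex II of the respiratory chain. Its flavoprotein subunit gene Sdha had the smallest p of the 34 genes at 2 weeks and at 8 weeks. Sdha was at 178, 189.7, 212 and 194 CPM in TAC-LVH and 355, 381, 379 and 356 in Sham-LVH, and at 274, 260.4, 262 and 245 in TAC-HF and 401, 442, 425 and 391 in Sham-HF. The gap between the groups was wider than the range within either group at both times. It fell by log2 values of -0.93 ± 0.10 (adjusted p = 1.99e-05) and -0.69 ± 0.08 (adjusted p = 3.75e-05). The iron-sulfur subunit Sdhb and the membrane anchors Sdhc and Sdhd fell at 2 weeks (-0.70, -0.70 and -0.51), and none of the 3 was called at 8 weeks (-0.22, -0.23 and -0.01, adjusted p from 0.0829 to 0.953).

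Fumarase (Fh1), which hydrates fumarate to malate, was at 65.1, 78.0, 87.5 and 73.3 CPM in TAC-LVH and 105, 127, 134 and 118 in Sham-LVH, and at 111, 98.6, 115 and 98.8 in TAC-HF and 118, 130.4, 132 and 118 in Sham-HF. It fell at 2 weeks (-0.67 ± 0.12, adjusted p = 0.000605). The fall at 8 weeks (-0.26 ± 0.08, adjusted p = 0.0299) turned to 0.07 with library totals, and its call was lost without any one of Sham-HF replicates 2 and 3 and TAC-HF replicates 1, 2 and 4 (adjusted p up to 0.0882) or with the block of library numbers (0.0819). Malate dehydrogenase exists in the matrix (Mdh2), where it closes the cycle, and in the cytosol (Mdh1), where it serves the malate-aspartate shuttle. Mdh2 was at 117, 118, 135 and 130.2 CPM in TAC-LVH and 207, 203, 182 and 223 in Sham-LVH, and at 149, 179, 141 and 158 in TAC-HF and 227, 241, 234 and 235 in Sham-HF. All TAC libraries were below all shams, and the falls at 2 and 8 weeks were close in size (-0.71 ± 0.10, adjusted p = 0.000155, and -0.60 ± 0.09, adjusted p = 0.00022). Mdh1 was at 333, 434, 500.0 and 415 CPM in TAC-LVH and 529, 689, 773 and 594 in Sham-LVH, and at 518, 476, 578 and 469 in TAC-HF and 539, 598, 579 and 527 in Sham-HF. It fell at 2 weeks (-0.62 ± 0.15, adjusted p = 0.00609), while at 8 weeks the groups overlapped and it was not called (-0.16 ± 0.09, adjusted p = 0.202).

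The 4 subunit genes of the pyruvate dehydrogenase complex all fell at 2 weeks, and at 8 weeks 1 fell and 1 rose. Pdha1, the E1 alpha subunit that carries the sites phosphorylated by the kinases, was at 239, 255, 309 and 272 CPM in TAC-LVH and 352, 452, 447 and 386 in Sham-LVH (-0.61 ± 0.12, adjusted p = 0.00171). At 8 weeks it was at 345, 311, 335 and 331 in TAC-HF and 377, 401, 376 and 362 in Sham-HF. The 8-week groups lay apart by a narrow margin, and the fall of -0.22 ± 0.08 (adjusted p = 0.0439) turned to 0.11 with library totals. It was not called without any one of the 4 Sham-HF replicates or of TAC-HF replicates 1, 2 and 4 (adjusted p up to 0.123). Nor was it called with the block of library numbers (0.117), in the fit of all 24 libraries (0.103) or with no low-count filter (0.137). Pdhb, the E1 beta subunit, fell at 2 weeks (-0.49 ± 0.14, adjusted p = 0.0181), a call lost without TAC-LVH replicate 1 (adjusted p = 0.0507, the highest over the libraries left out). At 8 weeks Pdhb was at 159.7, 151, 177 and 155 CPM in TAC-HF and 144, 150.3, 150.1 and 137 in Sham-HF. Every TAC-HF value lay above the sham values by a small margin, and the difference did not pass the test (0.12 ± 0.08, adjusted p = 0.27).

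Dlat, the acetyltransferase core of the complex, was at 76.6, 82.7, 91.1 and 83.2 CPM in TAC-LVH and 117, 138, 144 and 128 in Sham-LVH, and at 110.0, 107, 120.4 and 122 in TAC-HF and 126, 121, 132 and 111 in Sham-HF. It fell at 2 weeks with no overlap (-0.66 ± 0.10, adjusted p = 0.00025), and at 8 weeks the groups overlapped (-0.12 ± 0.08, adjusted p = 0.3). Pdhx, which binds dihydrolipoamide dehydrogenase to that core, was at 28.5, 26.7, 40.1 and 33.2 CPM in TAC-LVH and 40.9, 52.8, 55.0 and 46.2 in Sham-LVH. At 8 weeks it was at 49.9, 41.1, 52.7 and 48.5 CPM in TAC-HF and 39.0, 36.0, 39.7 and 34.6 in Sham-HF. The 2-week TAC libraries were all below their shams, and the 8-week TAC libraries were all above theirs. Pdhx thus fell at 2 weeks (-0.61 ± 0.13, adjusted p = 0.00308) and rose at 8 weeks (0.34 ± 0.09, adjusted p = 0.0103). The rise was called without any one of the 8 libraries (0.29 to 0.41) and with library totals (0.67), but it was lost when all 24 libraries shared a fit (adjusted p = 0.0539) or when low and high library numbers formed a block (adjusted p = 0.0524).

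The kinases did not move together. Pdk2, the kinase present in most tissues, was at 33.9, 40.6, 44.6 and 41.5 CPM in TAC-LVH and 86.1, 70.3, 71.1 and 82.4 in Sham-LVH, and at 57.5, 68.8, 59.4 and 62.1 in TAC-HF and 84.3, 97.0, 98.0 and 93.0 in Sham-HF. It fell at both times without overlap, by -0.95 ± 0.11 (adjusted p = 3.21e-05) and -0.61 ± 0.09 (adjusted p = 0.000174). Pdk1, known as a target of the hypoxia factor HIF-1, was at 63.9, 61.1, 72.5 and 67.9 CPM in TAC-LVH and 69.7, 81.5, 79.9 and 79.3 in Sham-LVH, and at 86.0, 78.0, 89.2 and 87.9 in TAC-HF and 70.4, 74.1, 80.0 and 77.5 in Sham-HF. Its groups overlapped at both times and it passed the test at neither (-0.23 ± 0.09, adjusted p = 0.069, and 0.15 ± 0.08, adjusted p = 0.16), though without Sham-LVH replicate 1 or TAC-LVH replicate 3 it was called lower at 2 weeks (adjusted p = 0.0335 and 0.0406), as it was by DESeq2 (0.0318). Pdk3 was scarce, with 11 to 71 counts a library in the 4 surgical groups. It was at 2.09, 2.67, 2.06 and 1.98 CPM in TAC-LVH and 0.641, 1.179, 1.55 and 1.103 in Sham-LVH, and at 1.162, 1.115, 1.28 and 1.41 in TAC-HF and 1.33, 0.694, 0.551 and 0.994 in Sham-HF. Each TAC-LVH library exceeded each Sham-LVH library, a rise of 0.97 ± 0.24 (adjusted p = 0.00643), while the 8-week groups overlapped (0.46 ± 0.27, adjusted p = 0.219).

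Relative to its level, Pdk4, the kinase induced by fasting and fatty acids, differed more between control groups than any other of the 34. Between libraries its relative spread was the widest in Sedentary, Running, Sham-LVH and TAC-HF, but not in TAC-LVH or Sham-HF. It was at 22.7, 40.9, 47.0 and 32.9 CPM in TAC-LVH and 35.6, 85.6, 43.2 and 82.3 in Sham-LVH, and at 214, 200.5, 112 and 265 in TAC-HF and 263, 289, 217 and 198 in Sham-HF. TAC and sham overlapped at both times, and neither difference passed the test (-0.78 ± 0.35, adjusted p = 0.129, and -0.31 ± 0.25, adjusted p = 0.385). Within the sum of the 4 kinase levels per kb, Pdk4 held 25.5% ± 8.38 (SD, n = 4) in Sham-LVH and 24.1% ± 4.38 in TAC-LVH, but 54.9% ± 4.94 in Sham-HF and 54.8% ± 9.00 in TAC-HF. The share of Pdk1 was 30.8% ± 3.41 in TAC-LVH against 22.3% ± 2.35 in Sham-LVH, and 16.7% ± 3.96 in TAC-HF against 11.7% ± 1.47 in Sham-HF. Pdk3 held 2.50% ± 0.45 in TAC-LVH and less than 1% on average in the other groups.

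**Figure D3:**
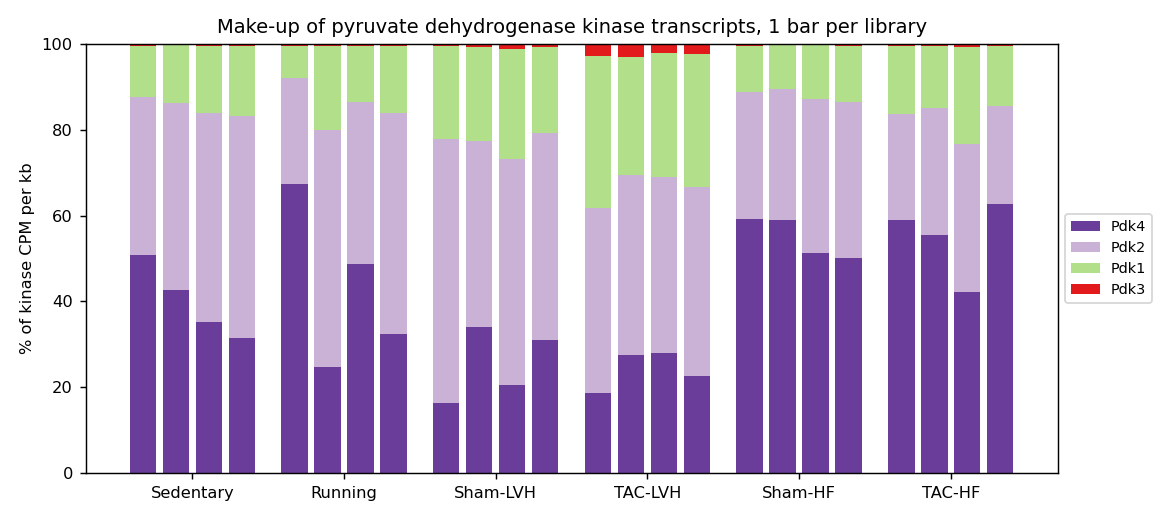
Share of each pyruvate dehydrogenase kinase in the summed CPM per kb of the 4 kinases (y axis, %), 1 bar a library, ordered by group. Pdk4 takes about the same share in TAC as in its own sham at each time, and a larger one in both 8-week groups (means of 54.9% and 54.8%) than in both 2-week groups (25.5% and 24.1%).

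Among the phosphatases, which reactivate the complex, Pdp2 fell most of all 34 genes at both times. Pdp2 was at 3.33, 5.11, 7.73 and 5.28 CPM in TAC-LVH and 14.0, 14.1, 14.6 and 15.2 in Sham-LVH, and at 6.54, 6.96, 6.25 and 5.21 in TAC-HF and 10.2, 17.8, 14.1 and 18.1 in Sham-HF. No TAC library reached the lowest sham library of its time. The log2 fold changes were -1.44 ± 0.19 (adjusted p = 0.000166) at 2 weeks and -1.29 ± 0.18 (adjusted p = 0.000278) at 8 weeks, and -1.06 and -0.95 with library totals. Pdp1, the calcium-sensitive phosphatase abundant in muscle, was at 15.7, 16.5, 21.8 and 15.6 CPM in TAC-LVH and 19.9, 21.3, 23.5 and 20.2 in Sham-LVH, and at 17.8, 12.6, 14.2 and 13.0 in TAC-HF and 9.76, 18.6, 14.9 and 13.5 in Sham-HF. Its groups overlapped at both times and it was not called (-0.29 ± 0.12, adjusted p = 0.0691, and -0.01 ± 0.18, adjusted p = 0.98). Without TAC-LVH replicate 3, the highest of its group, Pdp1 was called lower at 2 weeks (-0.43, adjusted p = 0.00455, with 0.00455 to 0.197 over the libraries left out). Pdpr, the regulatory subunit of Pdp1, fell at both times (-0.63 and -0.28), the second of which turned to 0.06 with library totals and was not called when low and high library numbers formed a block (adjusted p = 0.0619).

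**Figure D4:**
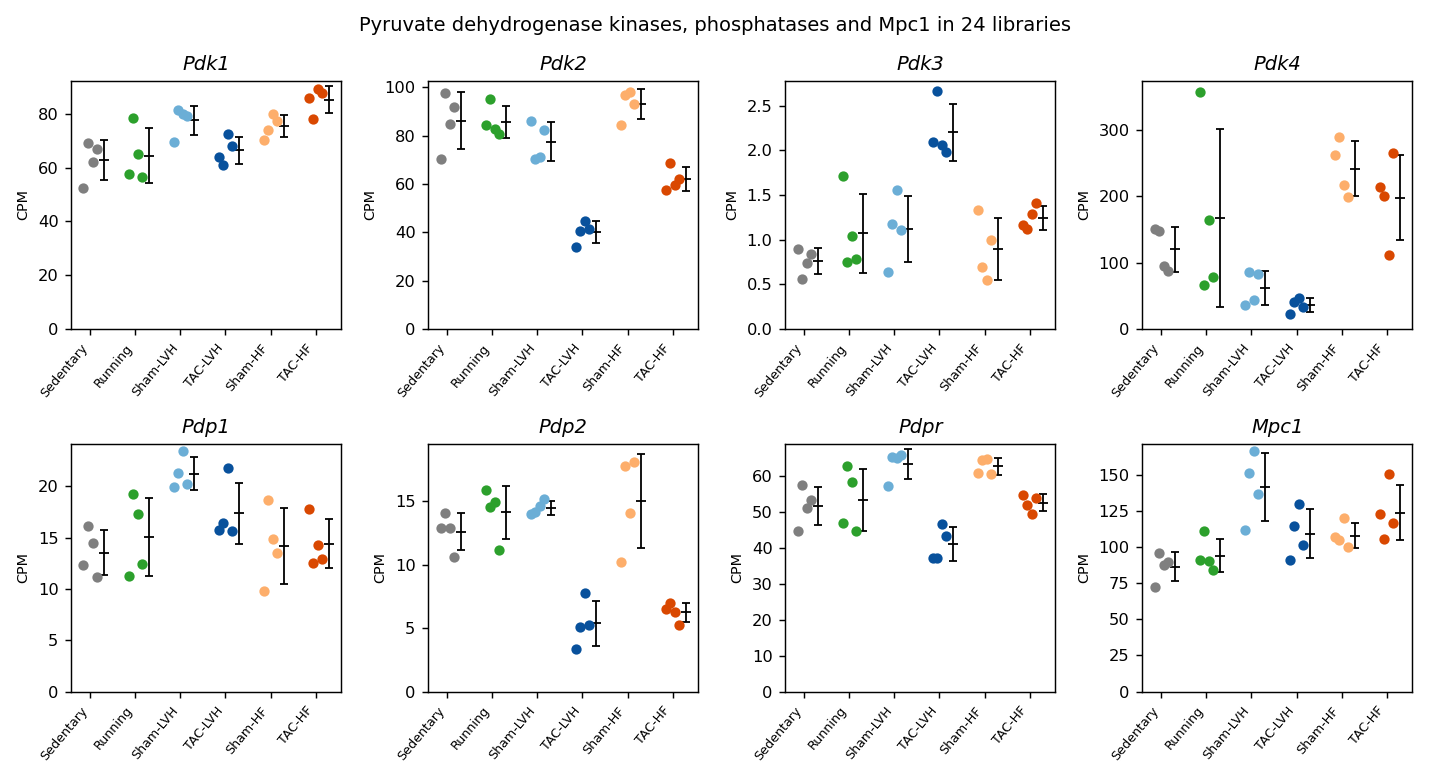
CPM (y axis, from 0) of the 4 pyruvate dehydrogenase kinases, the phosphatase genes Pdp1, Pdp2 and Pdpr, and Mpc1 in the 24 libraries by group, 1 point a library, with the mean and SD of the 4 libraries beside the points. Pdk2 and Pdp2 lie below their shams at both TAC times, Pdk3 lies above at 2 weeks, and Pdk4 ranges from 66.1 to 357 CPM within the running group.

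Pyruvate enters the matrix through a carrier made of Mpc1 and Mpc2. Mpc1 was at 90.9, 115, 130.2 and 102 CPM in TAC-LVH and 112, 151, 167 and 137 in Sham-LVH, and at 123, 105, 150.4 and 117 in TAC-HF and 107, 105, 119.8 and 100.1 in Sham-HF. Mpc1 overlapped between groups and was called at neither time (-0.38 ± 0.14, adjusted p = 0.0568, and 0.18 ± 0.10, adjusted p = 0.219). It was called lower at 2 weeks without Sham-LVH replicate 1 (adjusted p = 0.0178) or TAC-LVH replicate 3 (0.0239), by DESeq2 (0.0333), in the fit of all 24 libraries (0.0217) and with no low-count filter (0.0346). Mpc2 was at 40.9, 64.2, 67.2 and 50.7 CPM in TAC-LVH and 65.6, 87.2, 107 and 75.6 in Sham-LVH, and at 63.4, 54.8, 80.6 and 67.1 in TAC-HF and 70.2, 70.4, 73.8 and 61.3 in Sham-HF. Its values overlapped at both times. It fell at 2 weeks (-0.59 ± 0.18, adjusted p = 0.0282) and was not called at 8 weeks (-0.07 ± 0.11, adjusted p = 0.63). The 2-week call of Mpc2 was lost without any one of Sham-LVH replicates 2 and 3 and TAC-LVH replicates 1 and 4 (adjusted p up to 0.0743). With no low-count filter it was lost as well (0.107). Pyruvate carboxylase (Pcx) makes oxaloacetate from pyruvate and so refills the cycle. It was at 8.57, 7.71, 7.54 and 6.88 CPM in TAC-LVH and 12.9, 12.9, 13.5 and 12.7 in Sham-LVH, and at 10.6, 10.3, 8.82 and 11.4 in TAC-HF and 14.3, 14.1, 16.7 and 14.5 in Sham-HF. Pcx fell at both times without overlap (-0.76 ± 0.09, adjusted p = 5.48e-05, and -0.56 ± 0.10, adjusted p = 0.00097).

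The TAC effects at 2 and 8 weeks come from separate libraries and separate shams, and their difference was tested directly. Of the 29 genes lower at 2 weeks 16 were also lower at 8 weeks (55.2%), 13 were lower at 2 weeks only, and 0 were lower at 8 weeks only. Among all genes tested, 1155 of the 2289 lower at 2 weeks (50.5%) were lower at 8 weeks. Each of the 29 had a smaller decrease, or a rise, at 8 weeks, as did 79.3% of the 2255 genes lower at 2 weeks and tested at 8. The difference itself (8-week effect minus 2-week effect) passed the test for 3 of 34 genes, all upward, and for 0 downward, beside 0.933% of 14463 genes upward and 0.422% downward (DESeq2 called 9 upward and 0 downward). 25 of the 34 had an unadjusted p under 0.05, as did 2764 of the 14463 genes tested. The 3 were Pdhx (0.95 ± 0.17, adjusted p = 0.0148), Dlat (0.55 ± 0.12, adjusted p = 0.037) and Dlst (0.47 ± 0.11, adjusted p = 0.0464). Pdhx and Dlat are subunits of the pyruvate dehydrogenase complex and Dlst of its 2-oxoglutarate counterpart. Pdhx was called under each scaling, by DESeq2 and without any one of the 16 libraries (0.89 to 1.09, adjusted p from 0.00221 to 0.0417). Dlat and Dlst were not called on library totals or without most single libraries (adjusted p up to 0.0825 and 0.105). The count of 3 became 8 without Sham-LVH replicate 1 or TAC-LVH replicate 3, 2 without Sham-LVH replicate 4, 3 without TAC-HF replicate 2 and 1 without any other single library. The Pdhx level also lay apart between the shams, all 4 Sham-HF values being below all 4 Sham-LVH values, which did not pass edgeR's test (-0.37 ± 0.10, adjusted p = 0.0571) but did by DESeq2 (adjusted p = 0.0229) and by edgeR without Sham-LVH replicate 1 (0.0147).

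**Figure D5:**
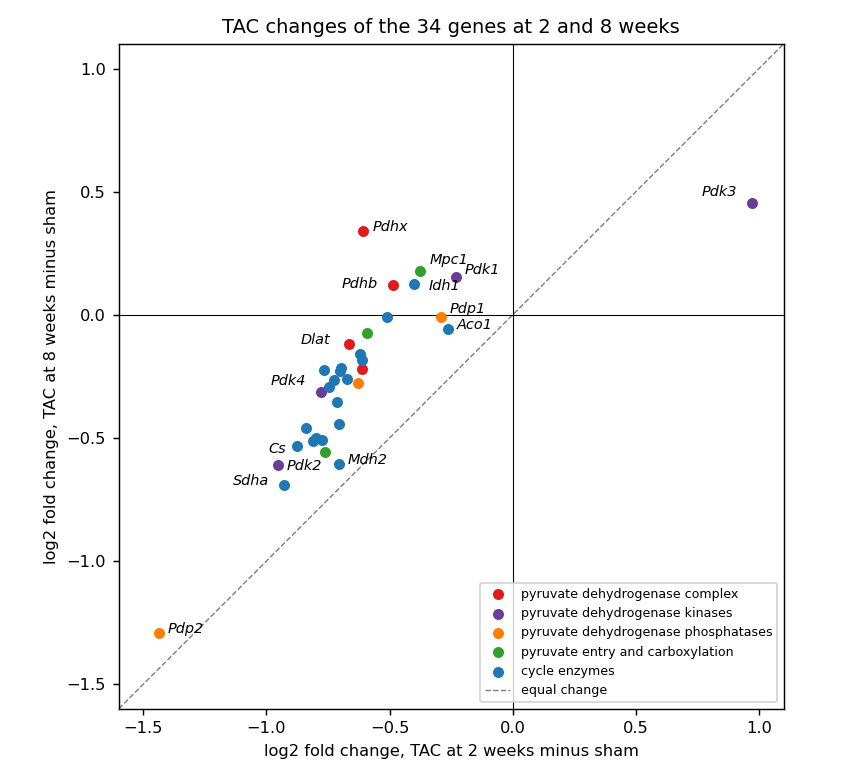
Log2 fold change of the 34 genes after TAC at 2 weeks (x axis) and at 8 weeks (y axis), colored by role, with a dashed line of equal change. All but Pdk3 lie above the line, Pdp2 and Mdh2 lie near it and Pdhx farthest from it; with library totals several points change sign, among the called genes Aco1 and Idh1 at 2 weeks and Dlst, Fh1, Pdha1 and Pdpr at 8 weeks.

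Within-library ratios of 10 gene pairs do not depend on scaling between libraries. Each was compared between the groups of the 3 comparisons by an exact two-sided permutation test over 70 arrangements, whose smallest p is 0.0286, and none of the 30 tests passed after Benjamini-Hochberg adjustment (smallest adjusted p 0.107). With 30 tests, a pair at that smallest p could not pass on its own, so not passing does not show that the ratios were alike. The log2 ratio of Pdp1 to Pdp2 counts was 1.74 ± 0.33 (SD, n = 4) in TAC-LVH and 0.55 ± 0.12 in Sham-LVH, and 1.198 ± 0.25 in TAC-HF and -0.085 ± 0.24 in Sham-HF (exact p = 0.0286 at each time). The ratio of Pdk1 to Pdk2 was 0.73 ± 0.14 in TAC-LVH and 0.005 ± 0.24 in Sham-LVH, and 0.46 ± 0.19 in TAC-HF and -0.30 ± 0.06 in Sham-HF (exact p = 0.0286 at each time). In both pairs the 4 TAC values lay above the 4 sham values at both times. At 8 weeks the ratios of Mpc1 to Mpc2 (difference 0.25), Mdh1 to Mdh2 (0.45), Pdha1 to Pdhb (-0.34) and Sdha to Sdhb (-0.47) also separated the groups (exact p = 0.0286 each). The pairs Sucla2 to Suclg2, Pdk4 to Pdk2, Idh2 to Idh3a and Pcx to Cs overlapped between groups in all 3 comparisons.

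Running for 8 weeks was compared with sedentary mice to ask whether these transcripts differ with exercise. None of the 34 genes passed edgeR's test, and none of 13824 genes did (0.0% in each direction). 1 of the 34, Idh1, and 665 genes in all had an unadjusted p under 0.05, and DESeq2 called 0 of the 34. In 0 of the 34 were the groups free of overlap, beside 1.31% of all genes lower and 1.72% higher. The median log2 fold change of the 34 was 0.01 and all but Idh1, Pdk3 and Pdk4 lay between -0.14 and 0.15. Idh1 was at 15.2, 21.6, 23.0 and 13.5 CPM in Running and 14.8, 14.0, 13.9 and 13.4 in Sedentary (0.37 ± 0.15, adjusted p = 1.0). Pdk4 was at 357, 66.1, 165 and 78.7 in Running and 150.5, 148, 94.6 and 86.8 in Sedentary, so that both the highest and the lowest of the 8 values were from running mice (0.46 ± 0.58, adjusted p = 1.0). Leaving out Running replicate 1 turned the Pdk4 value to -0.24. Pdk3 was at 1.71, 0.749, 1.04 and 0.780 CPM in Running and 0.891, 0.562, 0.733 and 0.840 in Sedentary (0.46 ± 0.31, adjusted p = 1.0). Aco1 had the lowest log2 fold change (-0.14 ± 0.10, adjusted p = 1.0). Cs was at 313, 417, 353 and 309 CPM in Running and 319, 365, 364 and 383 in Sedentary, Sdha at 305, 369, 330.5 and 288 and 290.2, 320.1, 331 and 328. For both enzymes the values of running mice spread around those of sedentary mice (-0.06 ± 0.11 and 0.01 ± 0.10), and differences of about the SE were not detectable with 4 libraries a group.

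The 2-week TAC effect differed from the running effect in 25 of 34 genes, all toward lower values, beside 9.56% lower and 9.5% higher of 14729 genes. The 8-week TAC effect differed in 11, again toward lower values, beside 5.35% lower and 5.74% higher of 14252 genes. Both tests share the running and sedentary libraries. Pdp2 had the largest difference in both (-1.59 ± 0.24, adjusted p = 0.000134, and -1.43 ± 0.22, adjusted p = 0.000372), followed among called genes by Sdha (-0.95 and -0.70). Pdk2 (-0.94 and -0.58), Cs (-0.82 and -0.47), Mdh2 (-0.66 and -0.54), Pcx (-0.76 and -0.55), Idh3a, Idh3b, Idh3g, Ogdh and Suclg1 completed the 11, all of which were also called at 2 weeks. At 8 weeks the Ogdh call held only without any one of Sedentary replicate 4, Running replicates 1 and 4, Sham-HF replicate 1 and TAC-HF replicate 2 (adjusted p up to 0.0802 without others). The 8-week call of Cs was lost without any one of Running replicate 3, Sham-HF replicates 2 and 3 and TAC-HF replicates 1 and 4 (adjusted p up to 0.0569). That of Suclg1 was lost without any one of Sedentary replicate 1, Running replicate 3, Sham-HF replicate 2 and TAC-HF replicates 1 and 4 (up to 0.066), and that of Pcx without Sham-HF replicate 3 (0.0559). With library totals only Pdp2 remained called in either (-1.139 and -1.03), and Ogdh at 8 weeks stood at 0.01.

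The sham groups were not alike in several of these genes. Sham-HF was higher than Sham-LVH in Pdk4 (1.99 ± 0.31, adjusted p = 0.0207), Ogdh (0.40 ± 0.08, adjusted p = 0.0205) and Idh2 (0.40 ± 0.09, adjusted p = 0.0268) and lower in Idh1 (-0.75 ± 0.16, adjusted p = 0.0315), while 2.2% of 13656 genes were higher and 1.44% lower. The groups did not overlap in 5 genes that were lower (6.39% of all genes) and 6 that were higher (6.44%). The lowest Pdk4 level in Sham-HF (198 CPM) was above the highest in Sham-LVH (85.6 CPM), and the 4 sedentary values lay between. Without Sham-HF replicate 3 none of the 34 was called, Pdk4 then standing at 2.05 (adjusted p = 0.0646, with 0.0138 to 0.0712 over the libraries left out). The calls of Pdk4, Ogdh, Idh2 and Idh1 were also lost without Sham-LVH replicate 3 or Sham-HF replicate 1 (Pdk4), Sham-LVH replicates 2 or 4 (Ogdh), those or Sham-HF replicates 2 or 4 (Idh2), and Sham-LVH replicates 2 or 3 or Sham-HF replicate 1 (Idh1). Between the same shams 3 of the 7 macrophage and monocyte markers (median log2 difference -0.63) and 1 of the 8 fibroblast markers were lower in Sham-HF, and their part in these differences was not tested. Library numbers in the labels run in separate blocks for the 2-week and the 8-week hearts, so time after surgery, age and handling of the cohorts cannot be told apart here.

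Among the neighbouring genes, those of the same reactions moved with the 34. Of 7 tested cycle and dehydrogenase genes outside the 34, 7 fell at 2 weeks and 5 at 8 weeks. They include Ogdhl, a 2-oxoglutarate dehydrogenase relative (-1.24 and -0.78), and the NAD(P) transhydrogenase Nnt (-0.77 and -0.44). D2hgdh, which removes D-2-hydroxyglutarate, also fell at both times (-0.64 and -0.54). Of the 4 assembly factors of succinate dehydrogenase edgeR called 0 at 2 weeks, and 0 had an unadjusted p under 0.05, while Sdhaf4 (0.79, adjusted p = 0.000935) and Sdhaf2 (0.41, adjusted p = 0.00729) rose at 8 weeks.

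Of 12 genes that supply lipoate and iron-sulfur clusters to these enzymes, 4 fell at 2 weeks, among them the cysteine desulfurase Nfs1 (-0.55), Isca1 (-0.49) and the lipoate synthase Lias (-0.43), and 0 fell at 8 weeks (0 also at an unadjusted p under 0.05), when Nfu1 rose (0.35). Of 18 genes of anaplerosis and the malate-aspartate shuttle, 11 fell and 4 rose at 2 weeks, and 8 fell and 1 rose at 8 weeks. The propionyl-CoA carboxylase subunits Pcca (-0.84 and -0.67) and Pccb (-0.71 and -0.52) and the mitochondrial malic enzyme Me3 (-0.74 and -0.59) fell at both times. Those that rose include Pck2, Slc25a1 and Acly at 2 weeks (0.59, 0.60 and 0.24) and Me2 at 8 weeks (0.84), and were named after their values were seen. Of 5 lactate genes, Ldhb (-0.97 and -0.58) and the carrier Slc16a7 (-0.76 and -0.99) fell at both times, and Slc16a3, the lactate exporter MCT4, rose at 2 weeks (1.04). Ldha was called at neither time.

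Regulators known for the kinases and cycle enzymes were mostly lower. Of 12 tested, 8 fell and 1 rose at 2 weeks, and 9 fell and 1 rose at 8 weeks. The fatty acid receptor Ppara (-1.13 and -0.60), the coactivator Ppargc1a (-0.99 and -1.44), its relative Ppargc1b (-0.68 and -1.03) and the orphan receptor Esrra (-0.69 and -0.31) fell at both times. Hif1a was the 1 that rose (0.59 and 0.56). In running hearts 0 genes of any of these lists were called by edgeR.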

How the data were processed

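Total RNA of 24 mouse heart libraries was measured, 4 in each of 6 groups taken from the labels. The deposited values are estimated counts per gene, given as whole numbers, and those above 1000000 were written by the authors to 6 digits only. The submitters' processing notes name Salmon, FastQC and the build mm9. Tool versions, the transcript annotation, strandedness and the step from transcripts to genes were not given in the sources used here. 1 row that names no gene was left out (0.0% of counts), and 42462 of 43432 identifiers matched a symbol.

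The 34 members and the gene lists were chosen with earlier results of these data known. Genes were filtered with filterByExpr, scaled by TMM and tested with edgeR 4.0.16 in R 4.3.3 (quasi-likelihood F test, robust, Benjamini-Hochberg adjustment over all genes tested, called at adjusted p under 0.05). Each comparison used only its own groups, and differences between effects used the groups of both. CPM per kb used the length of the APPRIS principal transcript. Ratios within a library (pseudocount of 0.5 counts) were compared by exact permutation with Python 3.11.15 and scipy 1.17.1. The fitting steps were tested on simulated data. All 34 members were reported, and list genes were named as up to 3 with the smallest p at each TAC time, with those added after their values were seen stated as such. Some list genes are not reported here. Total counts of 16802939 to 39512101 a library set the precision. Alternatives were library totals, DESeq2 1.42.0, DESeq2 size factors in edgeR, no low-count filter, mitochondrially encoded genes left out, all libraries in one fit, blocks by replicate number or by low and high library numbers, another ratio pseudocount, and each library left out in turn. Leaving out single libraries for differences between effects was chosen after seeing the data. Promoter sequences are from RefSeq (GRCm38.p6), with no genome of the build mm9 used here.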

Additional observations from a re-analysis of the deposited data

Results flagged for a closer look

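In 12 of 204 groups of 4 values, 1 library stood apart from the other 3 by Dixon's criterion, and chance gives about 1 in 20. In Running replicate 2 Idh2 was at 476 CPM against 393 to 405 in the others of the group, and Ogdh was at 934 CPM against 765 to 784. In Sedentary replicate 1 Dld was at 81.9 CPM against 97.2 to 100.05, and Mpc2 was at 46.0 CPM against 59.9 to 62.2. Pdpr was at 57.1 CPM in Sham-LVH replicate 1 against 65.1 to 65.7. In TAC-LVH, Pdk3 was at 2.67 CPM in replicate 2 against 1.98 to 2.09, and Pdp1 was at 21.8 CPM in replicate 3 against 15.6 to 16.5. In Sham-HF, Idh3b was at 131 CPM in replicate 2 against 119 to 120.4, Pcx was at 16.7 CPM in replicate 3 against 14.05 to 14.5, and Idh3a was at 147 CPM in replicate 4 against 158 to 159.8. In TAC-HF, Dlst was at 150.3 CPM in replicate 1 against 162 to 164, and Suclg1 was at 69.2 CPM in replicate 3 against 63.1 to 63.8.

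The TAC effect differed between 8 and 2 weeks, by edgeR's test of the difference with Benjamini-Hochberg adjustment, for Dlst (0.47, adjusted p = 0.0464), Dlat (0.55, adjusted p = 0.037) and Pdhx (0.95, adjusted p = 0.0148).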

How the results depend on the processing

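With library totals as the scale, the genes lower numbered 13 after TAC at 2 weeks and 4 at 8 weeks, those higher at 8 weeks 8, those higher in the 8-week minus 2-week difference 1, those lower in TAC minus running 1 at either time, and those lower and higher in Sham-HF against Sham-LVH 2 and 1. Directions of called genes turned on that scale for Aco1 (0.15) and Idh1 (0.002) at 2 weeks, for Dlst (0.069), Fh1 (0.07), Pdha1 (0.11) and Pdpr (0.056) at 8 weeks, and for Ogdh in the 8-week TAC minus running difference (0.013). Of genes not called with TMM, Pdk1 (0.18), Pdp1 (0.11) and Mpc1 (0.02) turned at 2 weeks, and Aco1 (0.27), Sdhd (0.32), Idh2 (0.04), Dld (0.15), Sucla2 (0.10), Sdhb (0.11), Sdhc (0.10), Mdh1 (0.17), Dlat (0.21), Pdk4 (0.03), Pdp1 (0.33) and Mpc2 (0.25) at 8 weeks. Among these, Aco1 and Sdhd were called higher at 8 weeks on library totals by edgeR (adjusted p = 0.0344 and 0.0252). By that scale's construction the median of all genes shifts, as given above with the counts of all genes called at both TAC times. DESeq2 called 9 genes higher in the 8-week minus 2-week difference and 4 lower in Sham-HF, and the fit of all 24 libraries called 1 and, at 8 weeks of TAC, 0 higher. With low and high library numbers as a block 12 were lower and 0 higher at 8 weeks, the calls of Dlst, Fh1, Pdha1, Pdpr and Pdhx being lost, and 28 were lower at 2 weeks. At 8 weeks the low block held most TAC-HF libraries and the high block most Sham-HF libraries. Library order and TAC were thus partly tied there, and the block cannot fully separate them. With no low-count filter edgeR's calls of Aco1 (adjusted p = 0.0744) and Mpc2 (0.107) were lost at 2 weeks, and Mpc1 (0.0346) was added. At 8 weeks that setting lost Dlst (0.0575), Fh1 (0.0606) and Pdha1 (0.137). In the fit of all 24 libraries Idh1 (0.0502) was lost and Mpc1 (0.0217) added at 2 weeks. That fit lost Pdha1 (0.103) and Pdhx (0.0539) at 8 weeks. The cause of these changes was not tested. Leaving out single libraries gave 25 to 32 genes lower and 1 higher at 2 weeks, 13 to 21 lower and 1 higher at 8 weeks, 1 to 8 higher in their difference, 22 to 27 and 8 to 12 lower in TAC minus running at 2 and 8 weeks, 0 to 5 lower and 0 to 4 higher between shams, and 0 in running. Depth limits Pdk3 most, with 11 counts in its lowest library.

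Deviations of same-numbered libraries correlated at -0.227 to 0.397, and not every pair was over 0.1 in any comparison, so the numbers were not taken as a pairing. With the replicate block 32 genes were lower and 1 higher at 2 weeks, 15 lower and 1 higher at 8 weeks, 0 in running, and 2 lower and 3 higher between shams. The block added calls of Pdk1 (adjusted p = 0.0305), Pdp1 (0.0096) and Mpc1 (0.00143) at 2 weeks by edgeR and ended that of Pdha1 at 8 weeks (0.0749).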
